A study of Mus musculus with 32 samples.

Results

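The 9 genes described here code for proteins of the lipid droplet and of the fasting response that are known targets of the peroxisome proliferator-activated receptors (PPARs): *Plin2*, *Plin4*, *Plin5*, *Angptl4*, *Pdk4*, *Vnn1*, *Hilpda*, *Pnpla2* and *Cpt1b*. They were taken by symbol from the 32544 rows of the raw count table, all 9 were found, and all 9 passed the filter on low counts in every comparison. Kidney cortex RNA was sequenced from 32 mice of 25 weeks of the strain C57BL/6J-Col4a3tm1Dec, 4 mice in each of 8 groups set by sex, genotype and treatment. Alport mice were Col4a3-/- and lack the type IV collagen chain whose loss causes Alport syndrome, an inherited disease of the glomerular basement membrane. Control mice were Col4a3+/-, so every mouse of the series carried the mutant allele. Vehicle-treated mice ate a purified diet, and NR-treated mice ate the same diet with nicotinamide riboside (NR), a precursor of NAD+.

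Perilipins coat lipid droplets, the organelles in which cells keep neutral fat, and set how far lipases can reach it. Free fatty acids released from droplets, or taken up from blood after lipoprotein lipase has acted, can bind PPARα, which then raises genes of fatty acid uptake, storage and oxidation. The proximal tubule, which fills most of the kidney cortex, burns fatty acids and has abundant PPARα. Several of the 9 genes also answer to other signals, with *Hilpda* known as a hypoxia-inducible gene and *Pdk4* as a gene raised by fasting and glucocorticoids.

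On the mouse genome build GRCm38.p6, which shares its coordinates with the mm10 build named by the submitters, RefSeq places *Plin2* at chr4:86626910-86670217, *Plin4* at chr17:56100587-56109948, *Plin5* at chr17:56111597-56117606, *Angptl4* at chr17:33774900-33781575 and *Pdk4* at chr6:5483351-5496278. *Vnn1* lies at chr10:23894688-23905344, *Hilpda* at chr6:29272488-29275449, *Pnpla2* at chr7:141455188-141460743 and *Cpt1b* at chr15:89416405-89425862. *Plin4* and *Plin5* are neighbours on the same strand. In the GENCODE vM21 annotation, 81.4% of the exon bases of *Cpt1b* are shared with *Gm44502* on the same strand, so its counts depend on how shared reads were assigned. The raw counts hold no row for *Gm44502*, so that assignment could not be seen and the *Cpt1b* values are uncertain. *Plin4* shares 0.3% of its exon bases with *Hdgfl2* on the opposite strand.

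RefSeq promoter windows, from 250 bases before to 50 bases after a transcript start, were held for 6 of the 9 genes in 8 windows. *Angptl4*, *Vnn1* and *Cpt1b* had no entry. The stretches below belong to the 3 genes with an entry that rose in NR-treated male controls, and each holds the part of its window that lies upstream of every annotated exon, 5′ to 3′ on the gene's minus strand. Capitals mark AGGTCA, the core bound by many nuclear receptors, or its reverse complement. They lie at chr4:86670218-86670309 for *Plin2*, chr17:56117607-56117798 for *Plin5* and chr6:5496310-5496528 for *Pdk4*.
Plin2: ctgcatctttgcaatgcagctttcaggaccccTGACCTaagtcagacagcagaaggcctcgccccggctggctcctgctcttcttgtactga
Plin5: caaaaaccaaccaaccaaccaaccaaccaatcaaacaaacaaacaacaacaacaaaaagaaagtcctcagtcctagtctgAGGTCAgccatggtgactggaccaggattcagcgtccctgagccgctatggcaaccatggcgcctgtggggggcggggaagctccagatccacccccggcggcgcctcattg
Pdk4: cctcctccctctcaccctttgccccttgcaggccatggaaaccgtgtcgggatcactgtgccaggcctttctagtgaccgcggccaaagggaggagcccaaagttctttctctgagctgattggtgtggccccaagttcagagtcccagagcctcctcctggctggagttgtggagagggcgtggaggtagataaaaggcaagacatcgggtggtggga
AGGTCA, searched on both strands, was present in 3 of the 8 windows, those of *Plin2* and *Plin5*, and in 16.26% of the 32851 windows of all genes. The paired form with 1 spacer base to which a PPAR binds with its partner RXR, AGGTCANAGGTCA, was in none of the 8 windows and in 0.04% of all windows, and the looser AGGNCANAGGNCA, which includes it, was in none of the 8 and in 0.38% of all. ACGTG, the core to which hypoxia-inducible factors bind, was present in 2 of the 8 windows, of *Hilpda* and *Plin2*, and in 19.62% of all windows. These matches describe the letters of short windows only.

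Levels are given as CPM, a gene's counts scaled to the size of its library after trimmed mean of M values (TMM) scaling. Library totals were 16621944 to 27778797 counts. *Col4a3*, the targeted gene, was 139.6–201 CPM in vehicle-treated controls and 48.8–83.2 CPM in the 16 Alport mice, so transcripts from the mutant allele were still counted. In NR-treated male controls it was 59.4, 94.1, 75.2 and 159.6 CPM, and replicates 1 and 3 lay within the range of vehicle-treated male Alport mice. In NR-treated female controls it was 105–125 CPM, below all 4 vehicle-treated mice. The log2 difference between *Col4a3* and its neighbour *Col4a4*, a measure chosen after this overlap was known, was −0.89 to −0.28 in the 16 controls and −1.76 to −1.27 in the 16 Alport mice, without overlap. The genes called in male controls are therefore also given without replicates 1 and 3. In bulk RNA, fewer cells of a type and less RNA per cell cannot be told apart.

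Per kilobase of exon, *Vnn1* was the most abundant of the 9 in vehicle-treated male controls (60.9 CPM per kb), followed by *Pnpla2* (48.9), *Plin2* (29.0), *Angptl4* (23.6), *Pdk4* (8.20), *Cpt1b* (7.41), *Plin5* (4.31), *Hilpda* (1.10) and *Plin4* (0.618). In vehicle-treated female controls the order was the same except that *Pdk4* (17.002 CPM per kb) stood above *Angptl4* (13.8). That holds for means only, as replicate 3 had 111 CPM of *Pdk4*. The medians were 47.8 CPM for *Pdk4* and 50.1 CPM for *Angptl4*, over exon lengths of 3511 and 3541 bases. *Cpt1b* is the carnitine palmitoyltransferase of heart and skeletal muscle, and *Plin4* and *Plin5* are best known from fat, muscle and heart. Markers of striated muscle summed to 29.3–71.4 CPM per mouse over 14 genes, with *Myh7* at 9.29–28.1 CPM, *Myh6* at 6.53–18.1 CPM, *Acta1* at 4.62–14.0 CPM, *Ckm* at 1.81–5.88 CPM and *Mb* at most 0.412 CPM. Of the adipocyte markers, *Adipoq* was at 0 in 26 of 32 mice and at most 0.573 CPM, and *Lep* was at 0 in 29 mice. Of the same list, *Fabp4* was at 9.13–51.9 CPM, *Lipe* at 20.1–67.8 CPM and *Car3* at 0.922–70.9 CPM, each highest in an NR-treated mouse. The highest *Plin1*, *Cidea* and *Ucp1* values, 2.86, 2.67 and 3.31 CPM, were all in NR-treated female control replicate 3, which also had the highest *Plin5* level of the 32 mice.

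**Figure D1:**
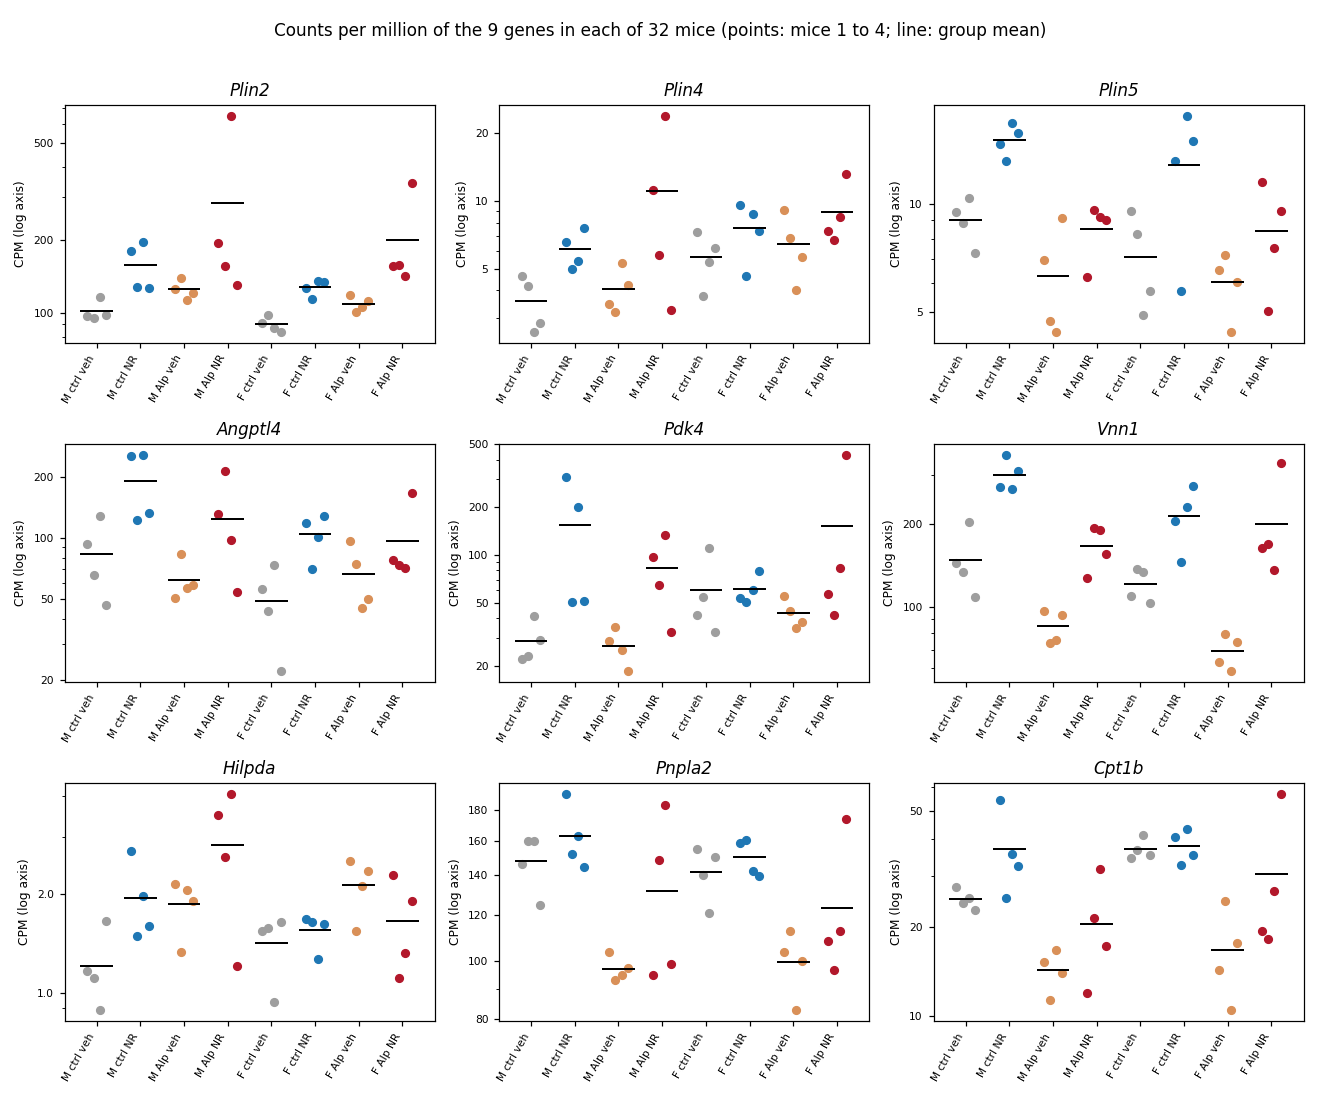
CPM of each of the 9 genes on a log axis, with a point for each of the 4 mice of a group and a line at the group mean (M, male; F, female; ctrl, control; Alp, Alport; veh, vehicle). *Vnn1* is lower in every vehicle-treated Alport mouse than in vehicle-treated controls of the same sex, and 1 NR-treated Alport mouse of each sex stands far above the rest for *Plin2*.

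The first comparison asks how the 9 genes differ between Alport and control kidneys without NR. In both sexes the droplet coat gene *Plin2* was slightly higher in Alport mice while *Vnn1*, *Pnpla2* and *Cpt1b* were lower. In males 5 of the 9 genes passed the test at an adjusted p under 0.05, with *Plin2* and *Hilpda* higher and the other 3 lower. In females 4 passed, *Plin2* higher and the same 3 lower. Alport kidneys differed at many genes: 51.0% of the 15286 genes tested passed in males, 26.8% higher and 24.2% lower, and 45.8% of 15709 in females, 24.0% higher and 21.8% lower. The members' share was thus near that of all genes.

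*Plin2* was 97.3, 95.6, 117 and 98.5 CPM in vehicle-treated male controls and 126, 139, 114 and 122 CPM in vehicle-treated male Alport mice. The groups overlapped at 1 control mouse, and the log2 fold change was 0.38 ± 0.09 (SE, adjusted p = 0.00328). In females it was 91.2, 98.2, 87.1 and 83.8 CPM in controls and 118, 101, 106 and 113 CPM in Alport mice, with every Alport mouse above every control (log2 fold change 0.32 ± 0.07, adjusted p = 0.00404). A single fit of all 32 mice, which shares 1 estimate of the spread, gave adjusted p values of 0.465 and 0.52. Neither *Plin4* nor *Plin5* passed in either sex. *Plin4* had log2 fold changes of 0.27 ± 0.24 in males and 0.22 ± 0.26 in females, and *Plin5*, which ties droplets to mitochondria, had −0.43 ± 0.22 and −0.19 ± 0.22.

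*Pnpla2* codes for ATGL, the lipase that takes the first fatty acid from stored triglyceride. It was 146, 159.7, 160.0 and 124 CPM in vehicle-treated male controls and 104, 92.9, 94.8 and 97.5 CPM in male Alport mice. In females it was 155, 140.2, 121 and 150.2 CPM in controls and 104, 113, 82.7 and 100.3 CPM in Alport mice. No Alport mouse reached a control in either sex, and *Pnpla2* fell by 0.52 ± 0.09 on the log2 scale in males (adjusted p = 0.000459) and by 0.46 ± 0.10 in females (adjusted p = 0.00436).

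*Hilpda* codes for a small droplet protein that inhibits ATGL, and its counts were low. It was 1.17, 1.11, 0.888 and 1.67 CPM in vehicle-treated male controls and 2.15, 1.34, 2.06 and 1.92 CPM in male Alport mice. The ranges overlapped, and the log2 fold change of 0.71 ± 0.28 passed narrowly (adjusted p = 0.0495). The call did not survive leaving out vehicle-treated male Alport replicates 1, 3 or 4 or male control replicates 1, 2 or 3, each in turn (adjusted p at most 0.122). Counting the other methods and settings too, 5 of 15 alternative fits kept the call. In females it was 1.54, 1.58, 0.941 and 1.65 CPM in controls and 2.54, 1.55, 2.13 and 2.35 CPM in Alport mice, with a log2 fold change of 0.63 ± 0.24 that did not pass (adjusted p = 0.0569).

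*Vnn1* codes for vanin-1, the pantetheinase of the tubule brush border that releases cysteamine and vitamin B5. It was 144, 134, 202 and 109 CPM in vehicle-treated male controls and 96.6, 73.9, 75.5 and 93.5 CPM in male Alport mice. In females it was 109.7, 137, 133 and 104 CPM in controls and 63.2, 79.8, 58.5 and 74.6 CPM in Alport mice. The groups did not overlap in either sex. *Vnn1* fell by 0.71 ± 0.16 on the log2 scale in males (adjusted p = 0.00355) and by 0.77 ± 0.12 in females (adjusted p = 0.000649).

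*Cpt1b* codes for the muscle form of the enzyme that passes long-chain fatty acids to mitochondria. It was 27.5, 24.2, 25.2 and 23.0 CPM in vehicle-treated male controls and 15.2, 11.3, 16.7 and 13.9 CPM in male Alport mice. In females it was 34.4, 36.7, 41.1 and 35.3 CPM in controls and 14.3, 24.6, 10.4 and 17.7 CPM in Alport mice. No Alport mouse reached a control of its sex. *Cpt1b* had the largest fitted fall of the 9 in both sexes, although in males that of *Vnn1* was within its error. It fell by 0.72 ± 0.12 in males (adjusted p = 0.000358) and by 1.10 ± 0.21 in females (adjusted p = 0.00171) on the log2 scale. *Angptl4* and *Pdk4* did not pass. Log2 fold changes were −0.34 ± 0.26 and 0.48 ± 0.33 in males and females for *Angptl4*, which codes for a secreted inhibitor of lipoprotein lipase, and −0.01 ± 0.21 and −0.44 ± 0.33 for *Pdk4*, the kinase that switches off pyruvate dehydrogenase and so spares glucose.

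Of the 9, 3 members in males and 4 in females had no overlap between Alport and control mice, against 50.6% and 44.4% of all genes tested. None of the 9 passed for a difference of the Alport effect between the sexes, where 0.532% of 16152 genes passed, and the log2 differences (female minus male) lay between −0.46 and 0.78. No member had an unadjusted p under 0.05 there. DESeq2 also called none.

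Other genes of the same pathways moved with the disease. Of 32 other PPAR target genes, 29 were tested in males and 22 were lower, and of 30 tested in females 26 were lower, with 1 higher in each sex. *Slc27a2*, a fatty acid transport protein, fell by 1.17 on the log2 scale in males, and *Acsl1*, which activates fatty acids, fell by 0.88 in females. Of other lipid droplet genes, 13 of 24 were lower in males and 14 of 25 in females, among them *Dgat2*, the enzyme of the last step of triglyceride synthesis, which fell by 0.88 and 1.13. The higher *Plin2* level stood opposite to most of the called genes of these lists. Among relatives of the 9, 6 of 16 were higher and 7 lower in males and 1 of 17 higher and 6 lower in females, and *Cpt1a*, the liver form of the carnitine palmitoyltransferase, fell by 0.76 and 0.66. Of hypoxia-inducible genes, 8 of 18 were lower and 3 higher in males and 9 lower and 1 higher in females. *Hilpda*, which is not on that list, was higher on average in both sexes and passed in males only. Of genes of fasting, FOXO factors and glucocorticoids, 12 of 20 were lower in males and 7 in females, with 3 and 4 higher. In the lipoprotein lipase system, *Lpl* itself fell by 1.05 and 0.87, within 4 of 9 lower and 3 higher in males and 2 of 11 lower and 4 higher in females.

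Marker genes of kidney cell types moved with genotype too. Of 17 proximal tubule markers, 17 were lower in males and 16 in females, and their sum was 35200–39300 CPM in vehicle-treated male controls and 12000–19000 CPM in male Alport mice. The sums in females were 24500–30100 and 10300–17000 CPM. All 15 macrophage markers and all 10 tubule injury markers were higher in Alport mice of both sexes, with macrophage sums of 99.4–121 against 716–997 CPM in males and 118–214 against 577–1040 CPM in females. Injury sums were 669–832 against 6350–7700 CPM in males and 1510–2060 against 7530–12100 CPM in females. Endothelial markers were higher for 10 of 11 genes in males and 6 in females, podocyte markers for 7 of 8 in each sex, and loop of Henle and collecting duct markers lower for 7 and 6 of 13. Of adipocyte markers, 1 of 5 was higher and 3 lower in males and 1 of 6 higher and 2 lower in females, and of striated muscle markers 1 of 8 was lower in males and none of 9 passed in females. The part of these shifts in the levels of the 9 genes was not tested.

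**Figure D2:**
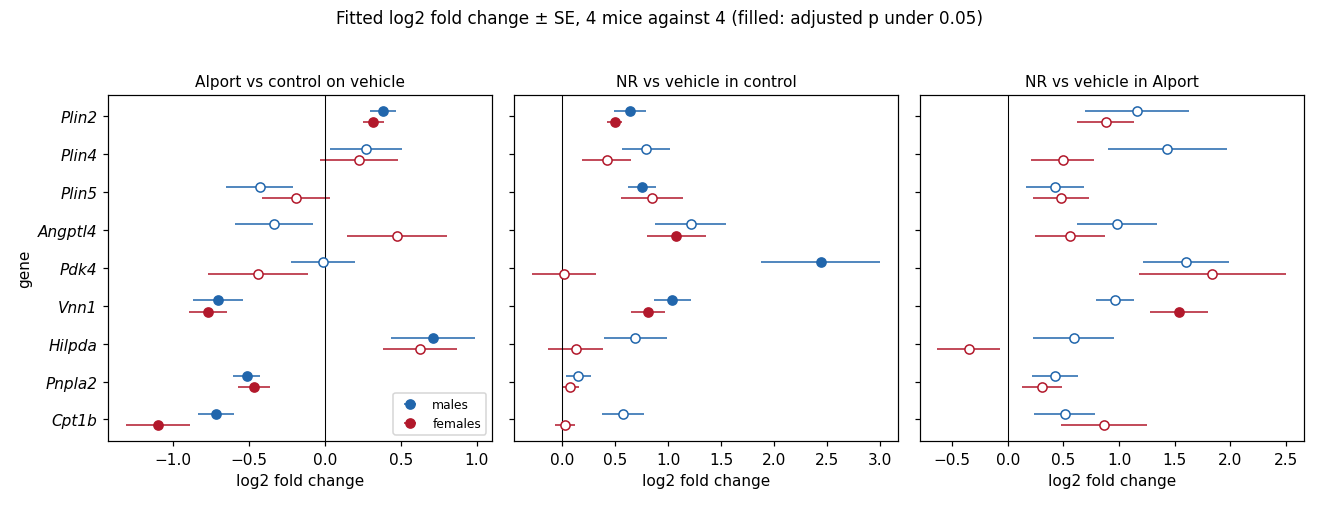
Fitted log2 fold change of each gene with its SE as a bar, in males and females, for Alport against control on vehicle, NR against vehicle in controls and NR against vehicle in Alport mice; filled points passed at an adjusted p under 0.05. *Vnn1* lies below 0 for Alport in both sexes and above 0 for NR in all 4 comparisons.

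The next comparison asks what NR did in control mice. All 9 genes were higher on average with NR in both sexes, and those that passed were *Plin2*, *Plin5*, *Pdk4* and *Vnn1* in males and *Plin2*, *Angptl4* and *Vnn1* in females. Thus 4 of 9 rose in males and 3 of 9 in females, against 4.53% of 14696 genes called in males, 3.07% higher, and 6.18% of 14951 in females, 3.91% higher. The median log2 fold change of the 9 was 0.76 in males and 0.42 in females. The 2 sexes share no mice.

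*Plin2* was 179.6, 129, 196 and 127 CPM in NR-treated male controls, all above the 4 vehicle-treated mice, and rose by a log2 fold change of 0.64 ± 0.15 (adjusted p = 0.0442). In NR-treated female controls it was 127, 115, 135 and 134 CPM, again all above vehicle (0.49 ± 0.07, adjusted p = 0.00322). *Plin5* was 14.7, 13.1, 16.8 and 15.8 CPM in NR-treated males against 9.46, 8.85, 10.4 and 7.28 CPM on vehicle, without overlap. It rose by 0.76 ± 0.13 (adjusted p = 0.0178). Without replicates 1 and 3 of the NR-treated males, neither *Plin2* (0.32 ± 0.10, adjusted p = 0.2) nor *Plin5* (0.68 ± 0.16, adjusted p = 0.116) passed. Of 16 alternative fits in males, 7 kept the *Plin2* call and 10 the *Plin5* call.

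In females *Plin5* was 13.2, 5.73, 17.6 and 14.9 CPM with NR and 9.56, 8.23, 4.90 and 5.72 CPM on vehicle. Replicate 2 lay among the vehicle-treated mice, and the log2 fold change of 0.85 ± 0.29 did not pass (adjusted p = 0.109). Without that mouse it passed (1.09, adjusted p = 0.0145), and without replicate 3, the mouse with the traces of fat markers, it was 0.66 ± 0.30. *Plin4* was 6.58, 4.98, 5.41 and 7.58 CPM in NR-treated males, above all of the vehicle values of 4.62, 4.19, 2.61 and 2.86 CPM, but did not pass (0.79 ± 0.23, adjusted p = 0.0759). In females its log2 fold change was 0.42 ± 0.23 (adjusted p = 0.312).

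*Angptl4* was 253, 123, 256 and 133 CPM in NR-treated males and 93.8, 65.9, 127 and 46.7 CPM on vehicle. NR-treated replicate 2 lay below the highest vehicle mouse, and the log2 fold change of 1.21 ± 0.33 did not pass (adjusted p = 0.0683), though DESeq2 called it (adjusted p = 0.0354). With 1 mouse left out in turn, the log2 fold change ranged from 1.01 to 1.48 (edgeR, adjusted p 0.0317 to 0.184). Over the other alternative fits, among them that without replicates 1 and 3, it ranged from 0.61 to 1.22, with adjusted p values of 0.00667 to 0.427. In females *Angptl4* was 118, 70.4, 101 and 128 CPM with NR and 56.2, 44.0, 73.4 and 22.2 CPM on vehicle. The groups overlapped at 1 mouse of each, and *Angptl4* rose by 1.08 ± 0.28 (adjusted p = 0.0419). DESeq2 (0.0523) and the loss of NR-treated female control replicates 1, 3 or 4 or of vehicle-treated female control replicates 1 or 2, each in turn, ended the call (adjusted p at most 0.103).

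In male controls *Pdk4* had the largest fitted change of the 9. It was 313, 50.6, 202 and 51.4 CPM in NR-treated male controls and 22.0, 23.1, 41.0 and 29.0 CPM on vehicle. All 4 NR-treated mice were above vehicle, but replicates 1 and 3 stood far over the other two. The log2 fold change was 2.44 ± 0.56 (adjusted p = 0.0394), and without replicates 1 and 3 it was 0.82 ± 0.22 (adjusted p = 0.143). Only 7 of 16 alternative fits kept the call. In females *Pdk4* was 53.6, 50.5, 59.95 and 79.3 CPM with NR and 41.5, 54.0, 111 and 32.4 CPM on vehicle, with a log2 fold change of 0.01 ± 0.30. The NR effect on *Pdk4* in females minus that in males was −2.40 ± 0.70 on the log2 scale, a difference that did not pass over all genes (adjusted p = 0.111, edgeR). Leaving out NR-treated male control replicate 2 or 4, the 2 mice with lower *Pdk4*, brought it past the threshold (adjusted p = 0.0353 and 0.0278). With each mouse left out in turn, the difference ranged from −2.71 to −1.81 and its adjusted p from 0.0278 to 0.24 (edgeR). DESeq2, 1 fit of 32 mice and a replicate block gave adjusted p values of 0.0555 to 0.36. The NR effect in females alone ranged from −0.19 to 0.50 with 1 mouse left out.

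*Vnn1* was 271, 355, 267 and 309 CPM in NR-treated male controls and rose by 1.04 ± 0.17 (adjusted p = 0.0153), with no overlap. It was the 1 member still called without replicates 1 and 3 (1.17 ± 0.20, adjusted p = 0.0431). In NR-treated female controls it was 204, 145, 229.8 and 273 CPM, above every vehicle-treated mouse, and rose by 0.81 ± 0.16 (adjusted p = 0.0143). *Hilpda*, *Pnpla2* and *Cpt1b* did not pass in either sex. Their log2 fold changes were 0.69 ± 0.30, 0.15 ± 0.12 and 0.57 ± 0.20 in males and 0.13 ± 0.26, 0.08 ± 0.08 and 0.03 ± 0.10 in females, so the lipase gene *Pnpla2* stayed within a narrow range of 144–192 CPM with NR in males and 139.5–160.1 CPM in females. Over the alternative fits in males, among them that without replicates 1 and 3, *Hilpda* was as low as 0.35 and *Cpt1b* as low as 0.20.

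In all, 5 members in males and 2 in females had no overlap between NR and vehicle, against 13.4% and 14.7% of all genes tested. The count of 4 called genes in males ranged from 0 to 6 with 1 mouse left out in turn. It was 6 without NR-treated male control replicate 2 and 5 without replicate 4, and it was 2 without NR-treated male control replicate 1, 1 without replicate 3, 0 without vehicle-treated male control replicates 1 or 2, 2 without replicate 3 and 1 without replicate 4. In females the count was 0 when all 32 mice shared 1 fit. None of the 9 passed for a difference of the NR effect between the sexes of control mice (0.683% of 15379 genes passed), though *Pdk4* and *Cpt1b* had an unadjusted p under 0.05, and DESeq2 called none.

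Other PPAR target genes rose with NR as well, 17 of 30 in male and 21 of 30 in female controls, and none fell. *Ehhadh*, an enzyme of peroxisomal fatty acid oxidation, rose by 1.19 in males, *Cyp4a14*, a fatty acid hydroxylase with close paralogs, by 5.89 in males and 1.72 in females, and *Fabp1*, a fatty acid binding protein, by 3.40 in females. Of other lipid droplet genes, 3 of 24 rose in males and 3 of 23 in females. *Acsl3*, an acyl-CoA synthetase of growing droplets, was among them in both sexes (1.14 and 0.66). Among the relatives of the 9, none of 16 passed in either sex. Of hypoxia-inducible genes, *Vegfa* fell in both sexes (by 0.51 and 0.48) and *Ndrg1* rose in males. Of 20 genes of fasting, FOXO factors and glucocorticoids, *Cdkn1a* and *Sgk1* rose in males and *Sgk1* in females. In the lipoprotein lipase system *Lpl* fell in males (by 0.83), and *Apoc3* and *Cd36* rose in females (1.47 and 0.63).

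Markers of other cells moved with NR in male controls. Tubule injury markers rose for 5 of 10 genes, endothelial markers for 9 of 11 and macrophage markers for 4 of 15, with injury sums of 2065, 1442, 1737 and 875 CPM in replicates 1 to 4 against 669–832 CPM on vehicle. Proximal tubule sums were 25800, 32740, 27980 and 33160 CPM, all below the 35200–39300 CPM of vehicle and lowest in the 2 mice with the highest *Pdk4*. Gene by gene, only 2 of the 17 proximal tubule markers were called lower, and 1 was called higher. In female controls none of the injury, endothelial, macrophage or podocyte markers passed, and no striated muscle marker passed in either sex. Adipocyte markers were called for 2 of 5 tested genes in each sex, *Lipe* and *Fabp4* in males and *Car3* and *Fabp4* in females. Without *Pck1*, a tubule gene that made up most of the list's total, the other 13 adipocyte markers summed to 82.1–127 CPM with NR against 54.3–58.9 CPM on vehicle in males and to 74.3–147 against 47.9–53.4 CPM in females, without overlap in either sex. The part of these shifts in the 9 genes was not tested.

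The third comparison asks what NR did in Alport mice. All 9 genes were higher on average with NR in males and 8 of 9 in females, but only *Vnn1* in females passed. In males 0 of 15500 genes passed by edgeR, which is 0%, so the count of 0 of the 9 equals the background, and 0% were called higher. In females 0.477% of 15712 genes passed, 0.388% higher. At an unadjusted p under 0.05 lay 5 members in males and 4 in females, against 5.06% and 16.7% of all genes. DESeq2 called 2 members in males, *Pdk4* and *Vnn1*, and 2 in females, *Plin2* and *Vnn1*, while limma-voom called 0 and 1. The vehicle-treated Alport mice are those of the first comparison, so a gene low or high in them moves both results.

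*Vnn1* was 127, 193, 190.2 and 156 CPM in NR-treated male Alport mice, every mouse above the 73.9–96.6 CPM of vehicle. The log2 fold change was 0.96 ± 0.17 (adjusted p = 0.348). It passed without NR-treated male Alport replicate 1 (1.07 ± 0.14, adjusted p = 0.0261), the mouse with the highest macrophage sum (1480 CPM) and injury sum (10900 CPM) of its group. In NR-treated female Alport mice *Vnn1* was 163, 169, 136 and 332 CPM, all above the 58.5–79.8 CPM of vehicle, and rose by 1.54 ± 0.26 (adjusted p = 0.0378). The call was lost without NR-treated female Alport replicate 2 and without any 1 of the 4 vehicle-treated mice (adjusted p 0.0548 to 0.163), while the log2 fold change stayed between 1.18 and 1.69.

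*Plin2* was 195, 157, 648 and 130.1 CPM in NR-treated male Alport mice. Replicate 3 had by far the highest *Plin2* of the 32 mice, replicate 4 lay within the vehicle range, and the log2 fold change of 1.16 ± 0.47 (adjusted p = 0.939) was 0.35 ± 0.15 without replicate 3. In NR-treated female Alport mice it was 156, 158, 142 and 343 CPM, every mouse above vehicle, with a log2 fold change of 0.88 ± 0.26 (adjusted p = 0.166). Without replicate 4 the change was smaller but more even (0.48 ± 0.08) and passed (adjusted p = 0.0344). *Plin4* was 11.2, 5.74, 24.0 and 3.27 CPM in NR-treated males, again highest in replicate 3 (1.44 ± 0.54, adjusted p = 0.939), and 7.38, 6.68, 8.53 and 13.2 CPM in females (0.49 ± 0.28, adjusted p = 0.394). *Plin5* was 6.26, 9.62, 9.21 and 9.001 CPM in males and 11.5, 5.03, 7.52 and 9.55 CPM in females, with log2 fold changes of 0.43 ± 0.26 and 0.48 ± 0.25.

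*Pdk4* was 97.7, 64.2, 134 and 32.8 CPM in NR-treated male Alport mice against 28.8, 35.03, 24.98 and 18.5 CPM on vehicle. Only replicate 4 lay within the vehicle range, and the log2 fold change was 1.60 ± 0.38 (adjusted p = 0.685). In NR-treated females it was 57.1, 41.7, 82.2 and 429 CPM against 55.1, 44.3, 34.8 and 37.9 CPM. The value of replicate 4 was the highest of the 32 mice, and the log2 fold change of 1.84 ± 0.66 (adjusted p = 0.22) was 0.49 ± 0.22 without it. *Angptl4* was 132, 213, 98.0 and 54.5 CPM with NR in males (0.99 ± 0.36, adjusted p = 0.937) and 77.6, 73.8, 71.5 and 165 CPM in females (0.56 ± 0.32, adjusted p = 0.392), and the female value was 0.17 ± 0.23 without replicate 4.

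*Pnpla2* was 94.98, 148, 183 and 98.9 CPM with NR in male Alport mice, and in the females it was 108, 96.9, 113 and 174 CPM. Replicates 1 and 4 of the males lay within the vehicle range, replicate 4 of the females stood well above it, and the log2 fold changes were 0.42 ± 0.21 and 0.31 ± 0.18. *Cpt1b* was 11.9, 21.5, 31.5 and 17.2 CPM in NR-treated males (0.51 ± 0.27) and 19.4, 18.2, 26.5 and 56.9 CPM in females (0.86 ± 0.38, adjusted p = 0.295), the female value being 0.36 ± 0.27 without replicate 4. *Hilpda* was 3.50, 2.61, 4.05 and 1.21 CPM in males (0.59 ± 0.36) and 2.29, 1.11, 1.33 and 1.91 CPM in females, where it was the 1 gene lower with NR (−0.35 ± 0.28, adjusted p = 0.54).

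The same mice led for several genes. NR-treated female Alport replicate 4 was the highest of its group for 7 of the 9 genes, and NR-treated male Alport replicate 3 for 6 of 9. Replicate 4 of the female group had the lowest macrophage sum (155.9 CPM) and injury sum (3142 CPM) of that group and a proximal tubule sum of 15550 CPM, between the others. Replicate 3 of the male group had the lowest proximal tubule sum of its group (7622 CPM) and also the lowest macrophage sum (312.6 CPM). Without replicates 1 and 3 of NR-treated male Alport mice, an alternative chosen after seeing the data, *Vnn1* passed (1.03 ± 0.14, adjusted p = 0.0107), *Plin2* was 0.19 ± 0.12 and *Plin4* was 0.13 ± 0.30.

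**Figure D3:**
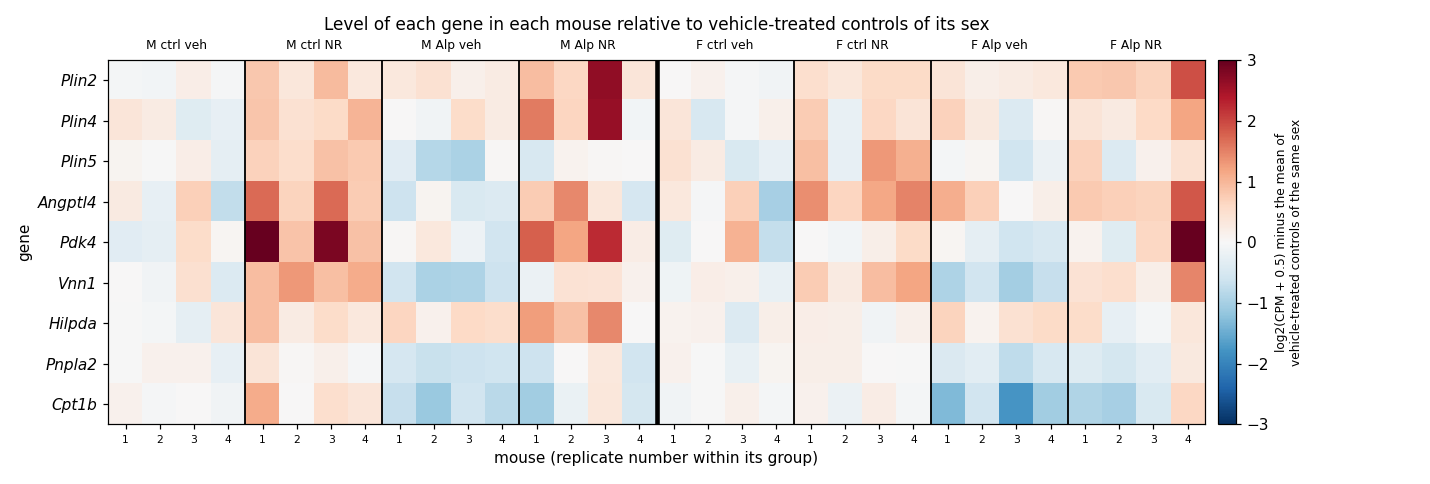
Level of each gene (rows) in each of 32 mice (columns, 4 to a group, labelled by replicate), as log2(CPM + 0.5) minus the mean of vehicle-treated controls of the same sex, red above and blue below, with colours ending at 3. Replicate 3 of NR-treated male Alport mice, replicate 4 of NR-treated female Alport mice and replicates 1 and 3 of NR-treated male controls hold the darkest reds.

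**Figure D4:**
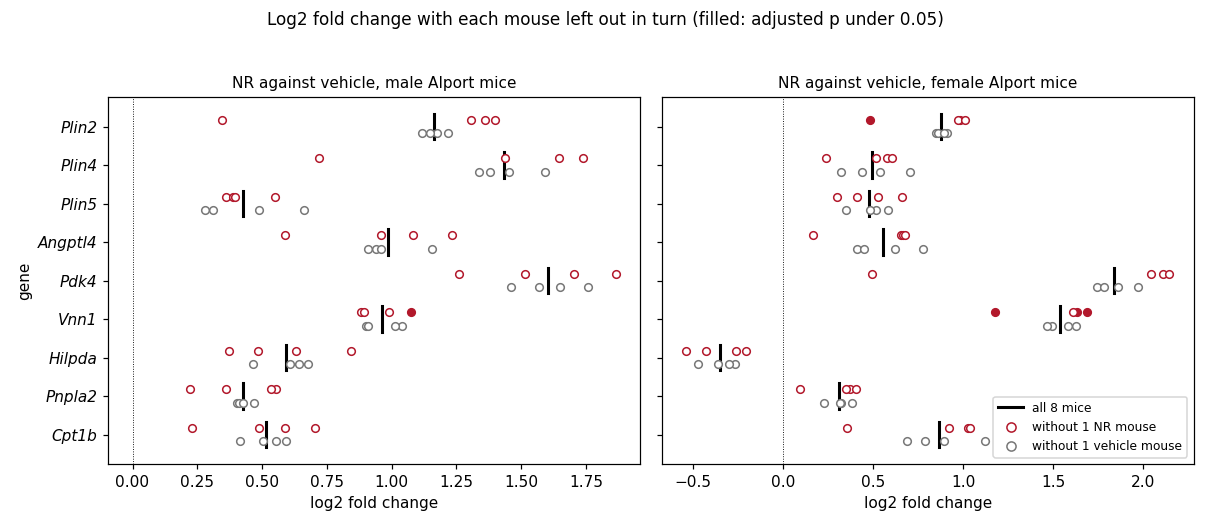
Log2 fold change for NR against vehicle in Alport mice with all 8 mice (black bars) and with 1 mouse left out in turn (circles; red where an NR-treated mouse was left out, grey where a vehicle-treated one was; filled where the adjusted p was under 0.05). *Plin2* in males moves from 1.16 to 0.35 and *Pdk4* in females from 1.84 to 0.49 when a single NR-treated mouse is left out, whereas *Vnn1* in males stays between 0.88 and 1.07.

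In Alport mice 1 member in males and 2 in females had no overlap between NR and vehicle, against 3.42% and 9.18% of all genes tested. None of the 9 passed for a difference of the NR effect between Alport and control mice, in males (0% of 15800 genes passed) or females (0% of 16064), nor between the sexes of Alport mice (0% of 16189). At an unadjusted p under 0.05 there were 0, 2 and 0 members, *Pdk4* (1.80 ± 0.79) and *Vnn1* (0.71 ± 0.33) being the 2 for genotype in females, and DESeq2 called 0 in each. In males the *Vnn1* effect of NR differed between genotypes by −0.09 ± 0.26.

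Among the lists, 9 of 30 other PPAR target genes rose with NR in female Alport mice, among them *Fabp1* (3.94), *Acot1* (1.93), *Cyp4a10* (2.05) and *Decr1* (0.85), and none of 30 passed in males, where 26 of 30 were higher and *Cyp4a14* had a log2 fold change of 5.19 (adjusted p = 0.252). Of other lipid droplet genes, *Acsl3* was the 1 of 25 that rose in females (1.06) and none of 25 passed in males. Relatives of the 9, the lipoprotein lipase system, hypoxia-inducible genes and genes of fasting, FOXO factors and glucocorticoids gave 0 calls by edgeR in both sexes. The proximal tubule marker *Slc22a12* rose in females (1.34), and no macrophage, injury, endothelial, podocyte, muscle or adipocyte marker passed in either sex. All 6 adipocyte genes tested in males and all 7 in females were higher on average with NR, and the sum of the 13 markers other than *Pck1* was 59.8–91.9 CPM against 49.7–57.2 CPM on vehicle in males and 76.2–136 against 47.8–55.1 CPM in females, without overlap. The amount of fat tissue was not tested here either. In females 0 of 15 macrophage markers, 1 of 10 injury markers and 11 of 11 endothelial markers were higher on average with NR. In males these were 2 of 15, 5 of 10 and 7 of 11. The part of these shifts in the 9 genes with NR in Alport mice was not tested. For *Sgk1*, a kinase gene induced by corticosteroids, the log2 fold change in males was 1.83 ± 0.40 (adjusted p = 0.558).

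**Figure D5:**
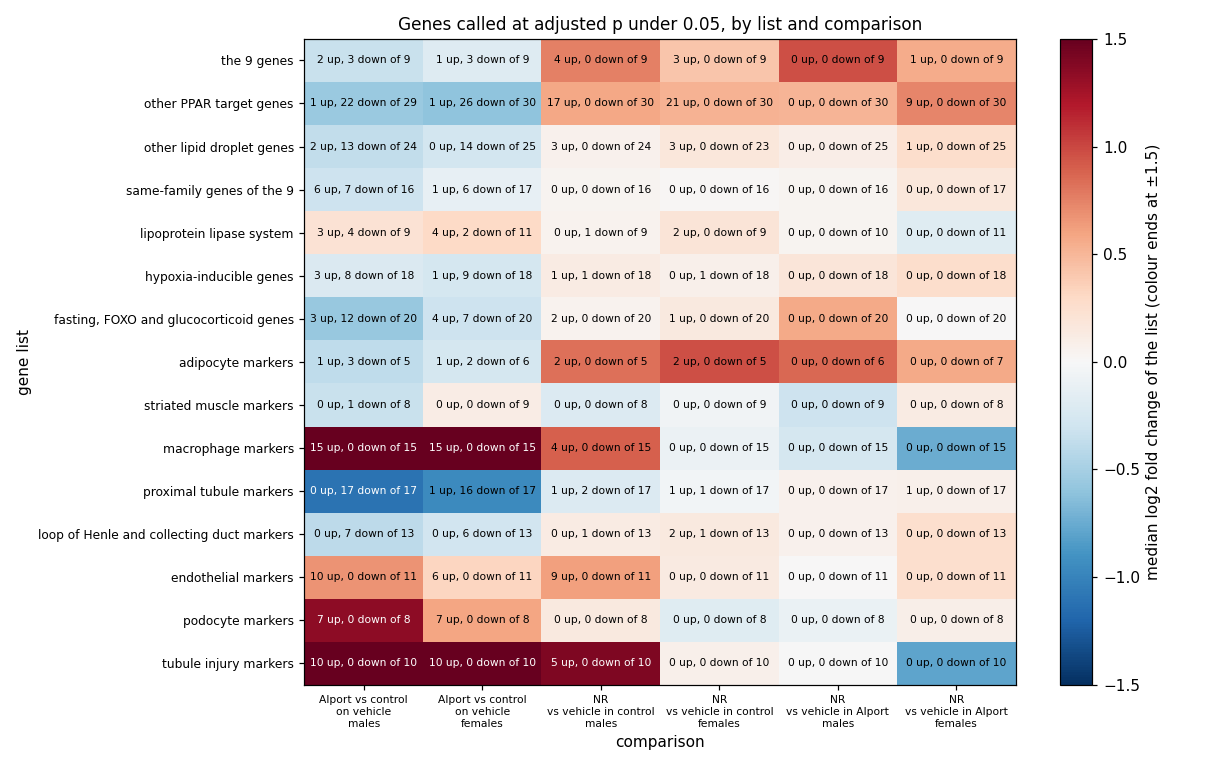
Median log2 fold change of each gene list (rows) in each of the 6 comparisons (columns) as colour, red for higher and blue for lower, with the numbers of genes called up and down of those tested written in each cell. Other PPAR target genes are mostly lower in Alport mice (22 of 29 and 26 of 30) and are higher with NR in controls (17 and 21 of 30).

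Sex alone was compared in vehicle-treated controls. Females had higher *Pdk4* (1.08 ± 0.33, adjusted p = 0.0279), *Cpt1b* (0.59 ± 0.08, adjusted p = 0.000356) and *Plin4* (0.68 ± 0.24, adjusted p = 0.0471) than males, 3 of 9 genes against 31.7% of 14990 genes called, 15.9% higher in females. Only *Cpt1b* had no overlap, 1 of 9 against 32.2% of all genes. The *Pdk4* value rested on vehicle-treated female control replicate 3, at 111 CPM, without which it was 0.59 ± 0.21 (adjusted p = 0.0622), and the call was also lost without male control replicates 1, 2 or 4. The *Plin4* call was lost without female replicates 1, 3 or 4 or male replicates 2, 3 or 4. The fatty acid receptor *Cd36*, of the PPAR list, had a log2 difference of −2.72, lower in females.

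The 9 genes did not share 1 pattern over the 8 groups. Group means of *Plin2*, *Plin4* and *Hilpda* were highest in NR-treated male Alport mice (282 ± 245, 11.1 ± 9.24 and 2.84 ± 1.24 CPM, SD, n = 4). Those of *Plin5*, *Angptl4*, *Pdk4*, *Vnn1* and *Pnpla2* were highest in NR-treated male controls (15.1 ± 1.57, 191 ± 73.3, 154 ± 127, 301 ± 40.9 and 163 ± 20.9 CPM). That of *Cpt1b* was highest in NR-treated female controls (37.9 ± 4.79 CPM). The highest mean was 5.75 times the lowest for *Pdk4*, 4.35 times for *Vnn1*, 3.91 times for *Angptl4* and 1.67 times for *Pnpla2*. In the order of group means, neighbouring groups overlapped at all 7 steps for 8 of the genes. *Vnn1* had 1 step without overlap, between vehicle-treated female controls and vehicle-treated male Alport mice.

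As a description, the genes whose 8 group means followed each member most closely among 14054 genes were named by Pearson r of log2 CPM. They were *G6pdx* (0.986) and *Hmox1* (0.977) for *Plin2*, *Syde1* (0.979) and *Ctla2a* (0.942) for *Plin4*, and *Eif3k* (0.986) and *Ywhae* (0.982) for *Plin5*. For *Angptl4* they were *Rrp1* (0.992) and *Dstn* (0.979), for *Pdk4* *Fetub* (0.982), and for *Vnn1* *Pex11a* (0.991), a peroxisomal gene of the PPAR list, and *Nsdhl* (0.988). *Hilpda* was followed by *4930523C07Rik* (0.96) and *Ctdp1* (0.953), *Pnpla2* by *Adipor2* (0.994) and *Vps13d* (0.991), and *Cpt1b* by *Deptor* (0.991) and *Slc4a1* (0.99). With 8 points, high values arise among many genes.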

How the data were processed

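Poly(A) RNA of mouse kidney cortex was sequenced from NEBNext Ultra II libraries, 1 per mouse. The authors deposited raw counts per gene symbol, used here, and log10 values of the same counts, which were not used. The submitters' notes name the mm10 build. The aligner version, annotation and strand setting are not given in the sources used here. Library totals had a median of 22071395 counts, and 7938 of 32544 rows were 0 in every mouse. TMM factors were 0.828 to 1.25.

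Each comparison of 2 groups was a quasi-likelihood fit of its 8 mice in edgeR 4.0.16 (R 4.3.3) after filterByExpr with a minimum count of 10, and each interaction a fit of 16 mice. Adjusted p-values are Benjamini-Hochberg values over all genes tested, with a threshold of 0.05, and errors are SE of the log2 fold change. The fits were tested on simulated data. Alternatives were DESeq2 1.42.0, limma 3.58.1 (voom), 1 fit of 32 mice, relative log expression size factors, no filter, a CPM filter of 0.5 in 4 mice, a replicate block and leaving out each mouse in turn.

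The 9 genes and all gene lists were chosen with earlier results of these data known. Of each list, up to 4 genes per comparison could be named, those with the smallest p among the called, or among all where none was called. For likeness, the 2 genes with the highest r among genes with a mean of at least 1 CPM were named. For *Pdk4*, 1 of the 2 is not reported here. Some genes were on more than 1 list (*Cd36*, *Cpt1a*, *Cdkn1a*, *Lipe* and others). Replicate numbers were checked for pairing: of 24 same-numbered pairs, 7 had a correlation over 0.1 (range −0.244 to 0.418). Such correlations cannot show whether a number marks a shared litter or batch. The reported fits did not pair the mice, and the replicate block was an alternative. None of the 48 pairs of libraries of the same group agreed within sampling noise, and pairs across groups were not compared. Mice are the replicates, and their litters are not given in the labels.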

Additional observations from a re-analysis of the deposited data

Results flagged for a closer look

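In 72 groups of 4 mice (9 genes in 8 groups), 6 had a mouse whose gap to its nearest neighbour, as a share of the group's range of log2(CPM + 0.5), exceeded Dixon's 95% critical value, and chance flags about 1 group in 20. NR-treated female Alport replicate 4 was high for *Plin2* (343 CPM) and *Angptl4* (165 CPM). Vehicle-treated male control replicate 3 was high for *Plin2* (117 CPM). NR-treated male Alport replicate 1 was low for *Plin5* (6.26 CPM). For *Hilpda*, vehicle-treated female control replicate 3 (0.941 CPM) and NR-treated female control replicate 3 (1.27 CPM) were low. None of the 5 interaction comparisons had a member at an adjusted p under 0.05.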

How the results depend on the processing

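Of 198 recomputed counts of called members, 171 stayed within 1.5 times the reported count. With 1 fit of 32 mice the count moved from 5 to 3 for Alport against control in males, from 0 to 1 for NR in male Alport mice, from 4 to 2 for NR in male controls, from 3 to 0 for NR in female controls and from 3 to 0 for females against males. With DESeq2 it moved from 0 to 2 for NR in male and from 1 to 2 in female Alport mice, and with limma-voom from 4 to 2 for NR in male controls. Without replicates 1 and 3 of NR-treated mice, chosen after seeing the data, it moved from 4 to 1 in male controls, where *Pnpla2* was −0.001, and from 0 to 1 in male Alport mice. The cause was not tested. With 1 mouse left out in turn, the counts ranged over 0 to 1 (NR in male Alport mice), 0 to 2 (NR in female Alport mice), 0 to 6 (NR in male controls), 1 to 3 (females against males) and 0 to 1 (sex by NR in controls), and log2 fold changes that turned direction ranged, for genes not called, over −0.17 to 0.20 and −0.65 to 0.0537 (*Pdk4*, Alport against control, males and females), −0.19 to 0.50 (*Pdk4*), −0.0411 to 0.10 (*Cpt1b*) and −0.0288 to 0.20 (*Hilpda*) for NR in female controls, and −0.11 to 0.0282 (*Pnpla2*, females against males). Leaving out 1 mouse also leaves fewer mice for the spread.

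With the replicate block, counts of called members were 4 and 4 for Alport against control in males and females, 0 and 1 (NR, Alport mice), 4 and 2 (NR, controls) and 3 for females against males; *Angptl4* passed (adjusted p = 0.00667) and *Pdk4* did not (0.0749) in male controls. The block also lowered the count of all genes called for NR in controls from 666 to 309 in males and from 924 to 371 in females. Over all genes, DESeq2 called 62 for NR in male Alport mice where edgeR called 0, and 728 in females where edgeR called 75, 1654 against 666 in male controls and 1493 against 924 in female controls. *Hilpda* at 0.888–4.05 CPM is the member whose precision depth limits most.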
